A study of Rattus norvegicus with 141 samples.

Results

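The interferon response genes described here are a list of 41 gene names whose transcripts are induced when cells receive interferon, or that carry the interferon signal to the nucleus. A row was taken when its gene name in the deposited count tables was on the list. This gave 39 genes of the 30562 in each table. The other 2 names, Rigi and Ddx58, are a newer and an older symbol of 1 gene, which was not analysed here.

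Interferons are secreted proteins that bind receptors on the same or neighbouring cells. The type I and type III receptors activate the kinases Jak1 and Tyk2, and a complex that holds Stat2 and Irf9 then enters the nucleus and binds a DNA element in the promoters of responsive genes. The products sense foreign RNA, block viral replication, tag or edit proteins and RNA, or feed back on the pathway, and the gut and liver keep a basal level of them in the absence of infection.

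The animals were Sprague-Dawley rats, male and female, adult and of wild-type genotype, fed standard rodent chow. Controls received vehicle, and the treated groups microplastics at a low dose of 5 mg/kg or a high dose of 50 mg/kg. Polyadenylated RNA of liver, stomach and duodenum was sequenced. There were 46 liver, 48 stomach and 47 duodenum libraries, with 8 in each combination of sex and dose except 6 in high-dose female liver and 7 in control female duodenum. Every library carried 1 of 3 batch labels. The labels do not say that the libraries of a group came from separate animals, so p-values measure the spread between libraries. Per the labels' protocols, the homogenizer was taken apart and brushed between treatments and only rinsed within one, so the handling of the tissue and the dose cannot be told apart. In bulk tissue, fewer cells of a type and less RNA per cell cannot be told apart either.

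The total of estimated counts was between 6153368 and 23716967 for liver libraries, between 4947825 and 23940175 for stomach libraries and between 5470039 and 25503801 for duodenum libraries. Levels are given as CPM, a gene's estimated counts scaled to the same total in every library. The tissues matched their labels: the hepatocyte gene Alb had a median of 87530 CPM in liver, the parietal cell gene Atp4a 5441 CPM in stomach and the brush border gene Vil1 1292 CPM in duodenum. Stomach libraries also held forestomach epithelium, with Krt13 at a median of 882 CPM, and duodenum libraries held varying amounts of pancreas, with the trypsinogen gene Prss1 between 0 and 12824 CPM. After a filter on low counts, 39 of the 39 genes could be tested in liver, 36 in stomach (not Oas2, Oas3 and Zbp1) and 38 in duodenum (not Oas2).

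The promoters of these genes share a sequence feature that the list did not use. In windows from 250 bases before to 50 bases after the start of each gene (RefSeq, build GRCr8), the core of the interferon-stimulated response element, which is GAAA repeated after any 2 bases, on either strand, was present in 19 of the 30 members that had a window, or 63.3%, and in 1312 of 33469 windows of all genes, or 3.92%. The motif TTCNNNGAA, which is the form bound by STAT dimers, was present in 6 of the 30 members, or 20%, and in 8.87% of all windows. The windows of Irf1, Stat2, Oasl, Trim25, Herc6, Cmpk2, Ifi35, Irf9, Mx1, Parp9 and Sp100 hold no match to the response element. Each of these genes was called in a dose, sex or tissue comparison. The stretches below come from some of the members with a match that the same comparisons name. Each is 40 bases on the gene's own strand, 5′ to 3′, and lies wholly before the start of the gene. Capitals mark 1 match to the response element, which reads as a repeat of TTTC where it lies on the opposite strand.
Rsad2, chr6:48788243-48788282, minus strand: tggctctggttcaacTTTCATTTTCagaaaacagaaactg
Oas3, chr12:41439622-41439661, plus strand: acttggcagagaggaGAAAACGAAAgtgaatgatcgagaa
Irf7, chr1:205800068-205800107, minus strand: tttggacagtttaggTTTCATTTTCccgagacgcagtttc
Ifi44l, chr2:243328649-243328688, plus strand: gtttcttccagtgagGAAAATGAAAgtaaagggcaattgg
Oasl2, chr12:47383312-47383351, minus strand: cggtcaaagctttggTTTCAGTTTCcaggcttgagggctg
Ifih1, chr3:67684003-67684042, minus strand: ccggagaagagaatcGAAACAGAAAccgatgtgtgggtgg
Ifi27, chr6:128355213-128355252, plus strand: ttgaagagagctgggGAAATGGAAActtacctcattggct
Bst2, chr16:18255068-18255107, minus strand: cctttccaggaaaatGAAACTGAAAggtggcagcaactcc
The match in capitals began 147 bases before the start of Rsad2, 95 before Oas3, 69 before Irf7, 59 before Ifi44l, 151 before Oasl2, 59 before Ifih1, 84 before Ifi27 and 125 before Bst2. The window of Bst2 holds a further match at -131 from the start, which overlaps the one in capitals, and the windows of Ifi27 and Ifi44l hold one more each, at -169 and -91, outside the stretches printed. A match describes these letters and is not a measured binding site.

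In the duodenum, 8 of the 38 genes were lower at the high dose than in controls and 0 were higher (edgeR quasi-likelihood test over all genes, Benjamini-Hochberg adjusted p below 0.05). The 8 were the signal carrier Stat2, the antiviral enzymes Rsad2, Oasl and Oas3, the RNA editor Adar, and the ubiquitin ligases Trim25, Herc6 and Dtx3l. They made up 21.1% of the genes tested. Over all 15189 genes, 16.3% were called and 7.58% were called lower. The median log2 change of the 38 genes was -0.16, beside -0.02 over all genes, and 32 of the 38 had a negative value.

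Rsad2, which encodes viperin, an enzyme that makes a chain-terminating nucleotide, ranged from 0.22 to 22.5 CPM in the 15 control libraries, with a median of 1.31. In the 16 low-dose libraries it ranged from 0.46 to 5.26 CPM with a median of 1.11, and in the 16 high-dose libraries from 0.279 to 4.38 CPM with a median of 1.11. The medians were thus close, and the groups differed in their upper part. Male control replicates 1, 5, 6 and 7 had 5.48, 17.6, 11.1 and 10.9 CPM of Rsad2, and female control replicates 1, 4 and 6 had 9.29, 4.41 and 22.5 CPM. These 7 control libraries lay above every high-dose library, while the other 8 controls ranged from 0.22 to 1.31 CPM. The same 7 were mostly rich in the enterocyte markers Fabp2, Alpi, Apoa4 and Vil1. These summed to between 2652 and 11215 CPM in the 7, and to between 1669 and 4100 CPM in the other 8. The part of enterocyte content in the Rsad2 result was not tested. The log2 change of Rsad2 at the high dose was -1.90 ± 0.53 (SE, adjusted p = 0.0164, edgeR).

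The same control libraries were high for Irf7, the transcription factor that amplifies the interferon response and is itself induced by it. Irf7 was at 53.4, 45.9, 31.8 and 38.2 CPM in male control replicates 1, 5, 6 and 7, and at 25.3, 26.2 and 41.6 CPM in female control replicates 1, 4 and 6. In the other 8 controls Irf7 did not exceed 14.2 CPM. It spanned 8.69 to 28.5 CPM at the low dose and 8.15 to 30.2 CPM at the high dose, and its log2 change at the high dose, -0.57 ± 0.26, did not pass the test (adjusted p = 0.115, edgeR). The interferon regulatory factors Irf1 and Irf9 had log2 changes of -0.14 ± 0.08 and -0.11 ± 0.06 at the high dose and did not pass it either (adjusted p = 0.193 and 0.212, edgeR).

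Oasl, an oligoadenylate synthetase-like protein that acts with the RNA sensors, ranged from 11.1 to 49.8 CPM in controls (median 22.3), from 11.6 to 34.4 CPM at the low dose (median 14.6) and from 7.27 to 33.8 CPM at the high dose (median 14.0). Its log2 change at the high dose was -0.74 ± 0.23 (adjusted p = 0.0262, edgeR). Herc6, a ligase that attaches Isg15 to proteins in mice, ranged from 3.6 to 33.6 CPM in controls (median 7.98) and from 4.43 to 16.5 CPM at the high dose (median 6.65). Its log2 change was -0.83 ± 0.28 (adjusted p = 0.0367, edgeR). As for Rsad2, the groups overlapped and the highest libraries were controls.

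The other 5 genes fell by smaller amounts, and their groups also overlapped. Adar, which edits double-stranded RNA and so keeps a cell's own RNA from being sensed, ranged from 52.8 to 88.3 CPM in controls (median 68.6), from 48.2 to 91.6 CPM at the low dose (median 62.0) and from 31.1 to 78.5 CPM at the high dose (median 54.5). Its log2 change was -0.33 ± 0.07 and had the lowest adjusted p of the list in this comparison, 0.0104 (edgeR). Stat2 had a median of 45.7 CPM in controls (39.7 to 61.4) and 41.0 CPM at the high dose (31.0 to 54.4), a log2 change of -0.22 ± 0.07 (adjusted p = 0.0258, edgeR). Trim25, a ubiquitin ligase that activates the sensor RIG-I, had a median of 51.6 CPM in controls (37.1 to 76.5) and 46.4 CPM at the high dose (21.8 to 60.3), a log2 change of -0.27 ± 0.09 (adjusted p = 0.0273, edgeR). Dtx3l, the ligase partner of Parp9, had a median of 39.0 CPM in controls (34.4 to 50.4) and 35.5 CPM at the high dose (27.3 to 45.4), a log2 change of -0.27 ± 0.09 (adjusted p = 0.0343, edgeR). Oas3, a sensor of double-stranded RNA that makes the activator of RNase L, had a median of 8.29 CPM in controls (4.09 to 12.5) and 6.77 CPM at the high dose (4.19 to 9.44), a log2 change of -0.42 ± 0.14 (adjusted p = 0.0419, edgeR). Of these 8 genes, Rsad2, Oas3 and Dtx3l hold the response element in the window, Stat2, Oasl, Trim25 and Herc6 do not, and Adar had no window.

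**Figure D1:**
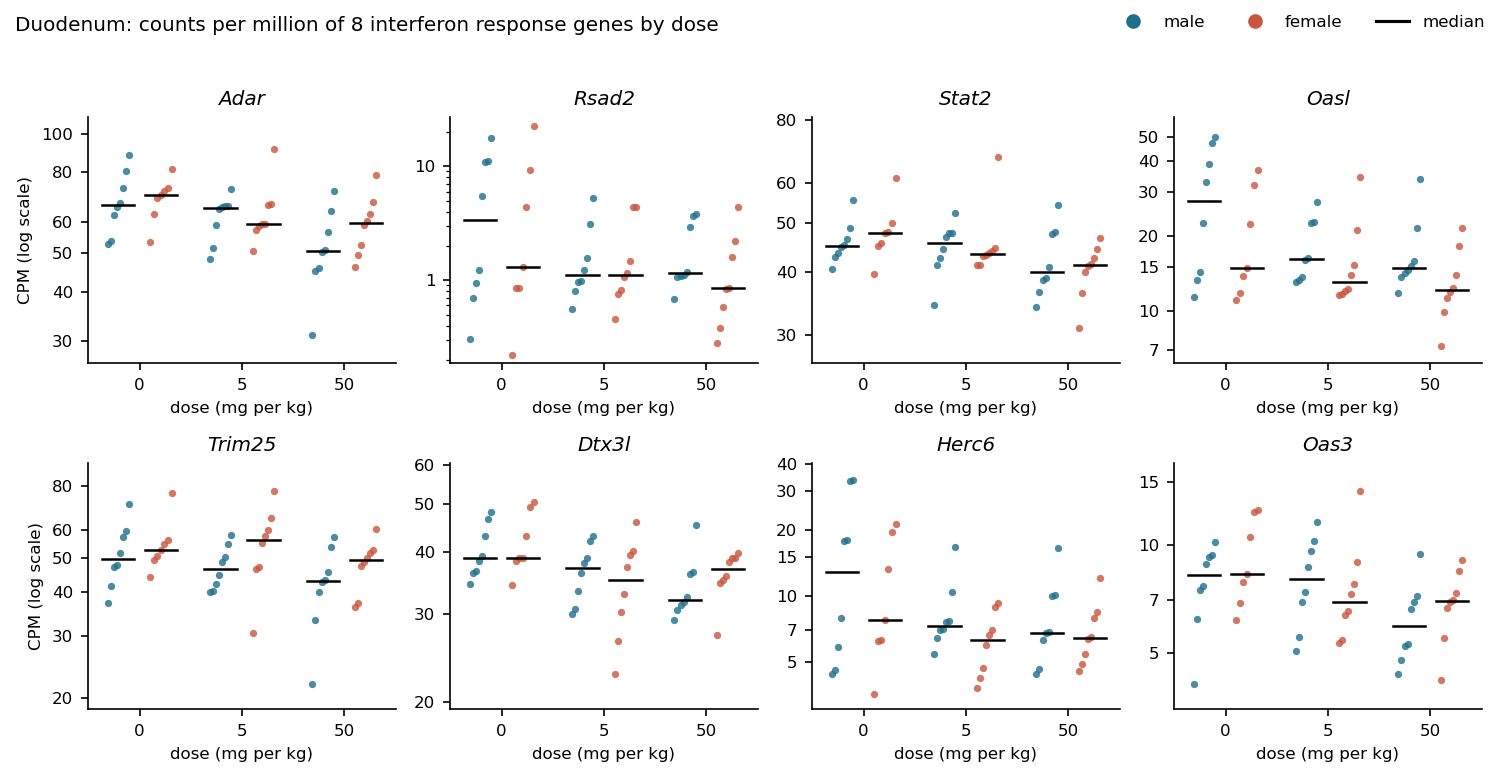
Levels in duodenum (CPM, log axis) of the 8 genes called lower at the high dose, 1 point per library, against dose (0, 5 or 50 mg/kg), coloured by sex; the bar marks the median of each sex and dose. For Rsad2, Oasl and Herc6 the highest points are control libraries, and for all 8 genes the groups overlap.

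Other well-known induced genes did not pass the test in duodenum. Isg15, a ubiquitin-like protein that is attached to other proteins, ranged from 2.3 to 40.1 CPM in controls and from 2.85 to 37.3 CPM at the high dose, with a log2 change of -0.57 ± 0.39 (adjusted p = 0.314, edgeR). The log2 change at the high dose was -0.45 ± 0.26 for Ifit3, which binds foreign RNA as part of a complex, and 0.10 ± 0.17 for Mx1, a dynamin-like antiviral GTPase (adjusted p = 0.236 and 0.716, edgeR). For the tether of budding viruses Bst2 it was 0.05 ± 0.11, and for the oligoadenylate synthetase Oas1a -0.11 ± 0.31 (adjusted p = 0.771 and 0.844, edgeR).

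At the low dose in duodenum, edgeR called 0 of the 38 genes and DESeq2 0, with 0% of all genes called. At an unadjusted p below 0.05 there were 7 genes, all lower, and over all genes 14.0% passed that level. The 3 with the smallest p were Rsad2, with a log2 change of -1.74 ± 0.55, Herc6 with -0.85 ± 0.28 and Dtx3l with -0.25 ± 0.09 (adjusted p = 0.208, 0.211 and 0.254, edgeR). Both dose comparisons use the same controls. Between the high and the low dose, edgeR called 0 genes, DESeq2 0, and 2 passed unadjusted, both lower at the high dose (over all genes, 0% called and 12.05% unadjusted). The log2 changes with the smallest p there were -0.18 ± 0.07 for Adar, -0.18 ± 0.08 for Trim25 and -0.20 ± 0.10 for the RNA sensor Ifih1 (adjusted p = 0.332, 0.392 and 0.42, edgeR).

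Within 1 sex, edgeR called 0 of the 38 duodenal genes at either dose, with 0% of all genes called. In males at the high dose DESeq2 called 1, with its share over all genes not counted. In edgeR 8 passed unadjusted beside 24.0% of all genes, all 8 lower. They were led by Adar with a log2 change of -0.39 ± 0.09 (adjusted p = 0.0746, edgeR), Herc6 with -0.98 ± 0.38 and Trim25 with -0.29 ± 0.12. In females at the high dose DESeq2 called 0, and 9 passed unadjusted beside 13.5% of all genes, all 9 lower, led by Stat2 with -0.33 ± 0.10, Adar with -0.28 ± 0.10 and Rsad2 with -2.04 ± 0.79 (adjusted p = 0.322, edgeR). The difference between the sexes in the high-dose change was called for 0 genes by edgeR and 0 by DESeq2, and 0 passed unadjusted (over all genes, 0% called and 1.99% unadjusted). The low dose gave 7 genes unadjusted in males beside 9.61% of all genes, led by Ifit3 with -1.06 ± 0.35, Rsad2 with -1.85 ± 0.74 and Oasl with -0.77 ± 0.32. It gave 4 in females beside 7.10% of all genes, led by Ifit1 with -2.38 ± 1.01, Dtx3l with -0.30 ± 0.13 and Herc6 with -0.84 ± 0.41, and DESeq2 called 0 in both. The sexes' difference at the low dose was called for 0 genes by edgeR and 0 by DESeq2 (0% of all genes called) and passed unadjusted for 3, beside 4.10% of all genes: Ifit3 with 1.51 ± 0.52, Isg20 with 0.36 ± 0.16 and Ifi27 with 0.67 ± 0.33, all higher in females.

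Other measures moved with the high dose in duodenum. Ribosomal protein transcripts made up 2.70% to 5.22% of counts in controls (median 3.74%), 2.76% to 6.16% at the low dose (median 4.38%) and 2.98% to 9.81% at the high dose (median 5.72%). With that share as a covariate, edgeR called 0 of the 38 genes at the high dose: the 8 log2 changes stayed negative but shrank to between -1.33 and -0.03 (adjusted p = 0.988 to 0.995). How many of all genes were called in that fit was not counted, so the 0 cannot be set against them. The summed level of the enterocyte markers ran from 1669 to 11215 CPM in controls (median 3696) and from 1165 to 5926 CPM at the high dose (median 2893), and 4 of the 4 measured markers had negative changes, of which 0 were called and 3 passed unadjusted. The summed macrophage markers ran from 550 to 2701 CPM in controls (median 1136) and from 830 to 3151 CPM at the high dose (median 1507), with 1 of 9 called higher. Most of that sum was 1 gene, Lyz2, with a median of 980 CPM over all duodenum libraries, where the next marker, C1qa, had 97 CPM. The sum thus mainly follows Lyz2 and is not a measure of macrophages as such. Of the T and NK cell markers 1 of 10 was called higher, and of the plasmacytoid dendritic cell markers 0 of 4, with Siglech between 0 and 0.979 CPM. Over all genes in this comparison 8.76% were called higher. Bst2, which is among the plasmacytoid dendritic cell markers, is also 1 of the interferon response genes. The part of these cell markers in the result was not tested.

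Within batch 1 alone edgeR called 0 of the duodenal genes at the high dose (log2 changes of -1.82 for Rsad2 and -0.22 for Adar), and within batch 2 alone 5, all lower (-2.17 for Rsad2 and -0.43 for Adar). Batch 3 held 7 duodenum libraries, too few for a value. For the fits within 1 batch or without 1 library, the share over all genes was not counted. Leaving out 1 library at a time gave 2 to 10 genes called. The count was 2 without male control replicate 5 or female control replicate 1, 4 without female control replicate 6, and 5 without male high replicate 1, 2 or 5 or female high replicate 5 or 8. Adar was called in 31 of the 31 fits, Stat2 in 30, Rsad2 in 29, Oasl and Trim25 in 28 each, Dtx3l in 22, Herc6 in 20 and Oas3 in 16, with log2 changes of Rsad2 from -2.16 to -1.45.

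Other genes of the pathway were read in the same comparison, duodenum at the high dose. There 16.3% of all genes were called, 8.76% higher and 7.58% lower. A single called gene in a short list does not stand apart from these shares. Of 9 interferon genes listed, 8 are in the tables and 0 had counts enough to be tested in any tissue. Of 6 receptor genes 1 fell, Ifnlr1, a subunit of the type III interferon receptor, with a log2 change of -0.50 ± 0.14 (adjusted p = 0.0188, edgeR). Of 9 signalling genes outside the list 3 fell, Stat3 by 0.28, the receptor kinase Tyk2 by 0.23 and the transcription factor Irf8 by 0.17 on the log2 scale (adjusted p = 0.0218, 0.0263 and 0.0321, edgeR). Of 11 nucleic acid sensing genes edgeR called 0, with 2 at an unadjusted p below 0.05, and of 10 restraining genes 1 rose, the phosphatase gene Ptpn2, with a log2 change of 0.30 (adjusted p = 0.0254, edgeR). Of 40 other interferon-induced genes 7 fell, among them the RNA helicase gene Mov10 by 0.52, Trim34 by 0.25, the RNA sensor gene Znfx1 by 0.55 and the Tudor domain gene Tdrd7 by 0.24 on the log2 scale (adjusted p = 0.0131 to 0.0183, edgeR), and 0 rose.

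**Figure D2:**
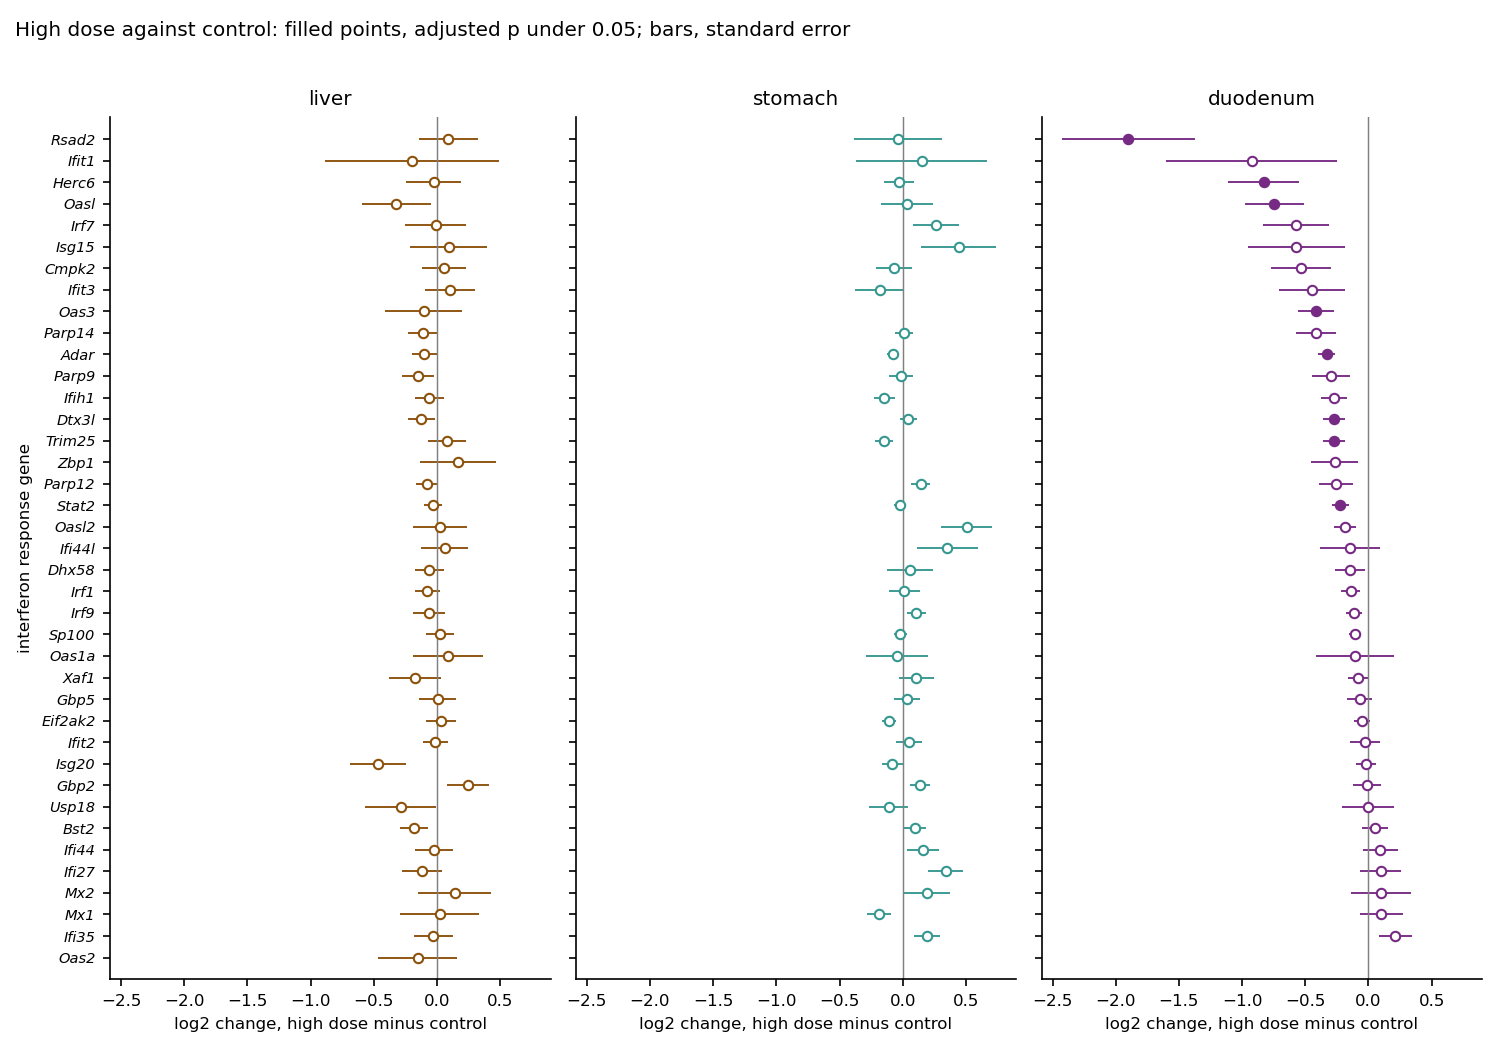
Log2 change from control to the high dose, with its standard error, for each interferon response gene tested in liver, stomach and duodenum; filled points pass an adjusted p of 0.05. In duodenum 8 filled points lie below 0, and in liver and stomach there are none.

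In the stomach at the high dose with both sexes together, edgeR called 0 of the 36 genes and DESeq2 0, with 4.49% of all genes called (2.65% higher and 1.84% lower). At an unadjusted p below 0.05, 2 were higher and 3 lower, beside 23.8% of all genes. The smallest p values belonged to Oasl2, an oligoadenylate synthetase-like gene, with a log2 change of 0.51 ± 0.20, to Ifi27, an interferon-induced membrane protein gene, with 0.34 ± 0.14, and to Trim25 with -0.15 ± 0.07 (adjusted p = 0.119, 0.129 and 0.19, edgeR). At the low dose edgeR called 0 and DESeq2 0 (0% of all genes called), and 5 passed unadjusted beside 6.004% of all genes, all 5 higher, led by Oasl2 with 0.62 ± 0.21, Parp12 with 0.22 ± 0.08 and Isg15 with 0.80 ± 0.30 (adjusted p = 0.596, 0.672 and 0.747, edgeR). Among the transcription factors, Stat2 had a log2 change of -0.03 ± 0.05 at the high dose, Irf1 by 0.01 ± 0.12, Irf7 by 0.26 ± 0.18 and Irf9 by 0.11 ± 0.08, and none passed. The effector genes Isg15 (0.44 ± 0.30), Rsad2 (-0.04 ± 0.35), Ifit3 (-0.18 ± 0.19), Oas1a (-0.05 ± 0.25), Bst2 (0.09 ± 0.09) and Mx1 (-0.19 ± 0.09) did not pass either. Of 39 other interferon-induced genes 3 rose at the high dose, the proteasome activator gene Psme1 by a log2 change of 0.24 ± 0.07 and the membrane restriction factor genes Ifitm3 by 0.22 ± 0.07 and Ifitm2 by 0.23 ± 0.07 (adjusted p = 0.0415, 0.0426 and 0.0438, edgeR).

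Between the high and the low dose, 1 of the 36 stomach genes was called, the RNA sensor Ifih1, which was lower at the high dose, where 0.707% of all genes were called and 0.0925% were called lower. Ifih1, which encodes MDA5, ranged from 10.7 to 19.4 CPM in controls (median 14.3), from 12.2 to 19.98 CPM at the low dose (median 15.4) and from 7.68 to 16.8 CPM at the high dose (median 13.2). The groups overlapped, and the log2 change was -0.31 ± 0.08 (adjusted p = 0.0496, edgeR). The next genes were Oasl with -0.43 ± 0.20 and Irf1 with -0.25 ± 0.12 (adjusted p = 0.301 and 0.323, edgeR). The call on Ifih1 was kept with DESeq2 and lost under all of the 8 other settings. It held in 11 of 32 fits that left out 1 library.

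In male stomach at the high dose, 2 of the 36 genes rose, or 5.56%, where 7.06% of all genes were called, 4.95% higher and 2.11% lower. These were Oasl2 and Ifi44l, and the share is close to that over all genes. Oasl2 ranged from 4.78 to 8.22 CPM in the 8 male controls (median 5.92), from 4.82 to 21.5 CPM in low-dose males (median 11.2) and from 4.58 to 22.2 CPM in high-dose males (median 10.5). Its log2 change at the high dose was 0.90 ± 0.29 (adjusted p = 0.0446, edgeR). Ifi44l, an interferon-induced gene that restrains the response in human cells, ranged from 0.583 to 2.24 CPM in male controls (median 1.49) and from 1.15 to 4.08 CPM in high-dose males (median 2.73), a log2 change of 1.05 ± 0.33 (adjusted p = 0.0453, edgeR). The groups overlapped for both genes. Ifi27 with 0.60 ± 0.20, Irf7 with 0.75 ± 0.26 and Isg15 with 1.19 ± 0.43 did not pass (adjusted p = 0.0529, 0.0614 and 0.075, edgeR). Outside the list, 3 genes of antigen presentation rose in the same males, the immunoproteasome gene Psmb8 with a log2 change of 0.64 ± 0.18, Psme1 with 0.32 ± 0.10 and the class I light chain gene B2m with 0.37 ± 0.12 (adjusted p = 0.0255, 0.0366 and 0.0482, edgeR), of 39 other induced genes, and Ptpn2 rose by 0.26 ± 0.08 (adjusted p = 0.0434, edgeR).

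Beside these 2 calls, ribosomal protein transcripts made up 2.24% to 3.91% of counts in male stomach controls and 2.68% to 7.50% at the high dose. The summed macrophage markers ran from 150 to 319 CPM in male controls and from 281 to 444 CPM in high-dose males, with 4 of 9 markers called higher. Over all genes in this comparison 4.95% were called higher. When the share of ribosomal protein transcripts was added to the model, the log2 changes were 0.26 for Oasl2 and 1.23 for Ifi44l (adjusted p = 0.946 and 0.897, edgeR). Within batch 1 alone they were 0.12 for Oasl2 and 1.19 for Ifi44l, and within batch 2 alone 1.46 and 0.48, and none of these 4 values passed. The count of genes called fell to 0 without male control replicate 1, 2, 4 or 5 or male high replicate 2, 3 or 4, and to 1 without male control replicate 6 or 7 or male high replicate 6. It was 3 without male control replicate 8 or male high replicate 1 or 7, 4 without male high replicate 5 and 5 without male high replicate 8. Over these 16 fits Oasl2 was called in 5 and Ifi44l in 3. The part of the macrophage markers was not tested.

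In female stomach at the high dose edgeR called 0 genes and DESeq2 0 (0% of all genes called), and 1 passed unadjusted beside 5.81% of all genes, lower: Eif2ak2, the kinase PKR that halts translation on double-stranded RNA, with a log2 change of -0.19 ± 0.08 (adjusted p = 0.848, edgeR). Herc6 with -0.29 ± 0.17 and the nucleotide kinase gene Cmpk2 with -0.34 ± 0.20 followed. The difference between the sexes in the high-dose change was called for 0 genes by edgeR and 0 by DESeq2 (0% of all genes called). It passed unadjusted for 5 beside 7.84% of all genes, all 5 lower in females, led by Ifi44l with -1.39 ± 0.47, Irf7 with -0.98 ± 0.35 and Isg15 with -1.49 ± 0.59 (adjusted p = 0.629, edgeR). At the low dose males had 6 genes higher unadjusted, beside 6.88% of all genes in either direction, led by Isg15 with 1.38 ± 0.43, Oasl with 0.91 ± 0.29 and Oasl2 with 0.89 ± 0.29 (adjusted p = 0.62, edgeR). Females had 1 higher and 1 lower unadjusted beside 2.87% of all genes, with Isg20 at -0.25 ± 0.12, Ifih1 at 0.24 ± 0.12 and Parp12 at 0.22 ± 0.11 (adjusted p = 1, edgeR). The sexes' difference at the low dose passed unadjusted for 1 gene beside 2.87% of all genes, Oasl with -0.90 ± 0.41, ahead of Isg15 with -1.17 ± 0.59 and Ifi44 with -0.42 ± 0.25. In these 3 low-dose comparisons edgeR called 0 genes and DESeq2 0, with 0% of all genes called.

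In the liver, edgeR called 0 of the 39 genes at the high dose, DESeq2 0, and 1 passed unadjusted (over all genes, 0% called and 3.397% unadjusted). That gene was the exonuclease gene Isg20, lower with a log2 change of -0.47 ± 0.22, followed by Bst2 with -0.18 ± 0.11 and the GTPase gene Gbp2 with 0.24 ± 0.17 (adjusted p = 1, edgeR). At the low dose edgeR called 0, DESeq2 0, and 0 passed unadjusted (over all genes, 0% called and 2.07% unadjusted). Oasl2 with 0.33 ± 0.20, Trim25 with 0.20 ± 0.14 and Gbp2 with 0.23 ± 0.16 came first. At the high dose the log2 changes were -0.03 ± 0.07 for Stat2, -0.08 ± 0.10 for Irf1, -0.01 ± 0.24 for Irf7 and -0.07 ± 0.13 for Irf9. They were 0.09 ± 0.30 for Isg15, 0.09 ± 0.23 for Rsad2, 0.11 ± 0.20 for Ifit3, 0.09 ± 0.28 for Oas1a and 0.02 ± 0.31 for Mx1, and none passed. Between the doses 0 were called by edgeR and 0 by DESeq2 (0% of all genes called), and 3 passed unadjusted beside 4.64% of all genes, all 3 lower at the high dose, with Isg20 at -0.52 ± 0.22, Bst2 at -0.25 ± 0.11 and Oasl at -0.57 ± 0.28 (adjusted p = 0.958, edgeR). At the high dose 1 gene passed unadjusted in males beside 4.87% of all genes, with Bst2 at -0.34 ± 0.15, Gbp2 at 0.38 ± 0.23 and Isg20 at -0.41 ± 0.30 (adjusted p = 0.924, edgeR). In females 0 passed beside 1.52% of all genes, with Parp9 at -0.35 ± 0.19, Isg20 at -0.52 ± 0.32 and Dtx3l at -0.24 ± 0.16 (adjusted p = 1, edgeR). The sexes' difference at the high dose also had 0 unadjusted beside 2.34% of all genes, with Parp9 at -0.40 ± 0.25, Bst2 at 0.30 ± 0.22 and Oasl2 at -0.56 ± 0.43. In these 3 comparisons edgeR called 0 and DESeq2 0, with 0% of all genes called.

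At the low dose the liver response differed between the sexes for 2 of the 39 genes, Ifi27 and Ifi35, both with a higher change in females. They made up 5.13% of the genes tested, where 7.84% of all genes were called, 6% in that direction and 1.84% in the other, so the share is near that over all genes. Ifi27 had a median of 293 CPM in male controls (148 to 415) and 167 CPM in low-dose males (133 to 272), and 187 CPM in female controls (104 to 263) and 264 CPM in low-dose females (176 to 504). Ifi35, whose product binds its partner Nmi, had a median of 29.9 CPM in male controls (17.1 to 54.6) and 22.3 CPM in low-dose males (15.8 to 35.1). In females Ifi35 had 39.4 CPM in controls (28.3 to 44.2) and 47.4 CPM at the low dose (26.6 to 70.4). Within each sex the groups overlapped. The difference in log2 change, female minus male, was 1.32 ± 0.30 for Ifi27 and 0.94 ± 0.29 for Ifi35 (adjusted p = 0.0369 and 0.0436, edgeR), and Bst2 with 0.60 ± 0.21 did not pass (adjusted p = 0.0622, edgeR).

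Neither sex alone had a called gene at the low dose in liver (0% of all genes called by edgeR). In males Ifi27 had a log2 change of -0.75 ± 0.21, Ifi35 -0.57 ± 0.21 and Trim25 0.46 ± 0.20 (adjusted p = 0.0922, 0.11 and 0.161, edgeR). There 3 genes passed unadjusted in edgeR, beside 24.3% of all genes. DESeq2 called 1, with its share over all genes not counted. In females Ifi27 had 0.57 ± 0.21, Isg15 1.02 ± 0.40 and Bst2 0.36 ± 0.15 (adjusted p = 0.606, edgeR), with 4 unadjusted beside 7.11% of all genes and 0 called by DESeq2.

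Ribosomal protein transcripts made up a median of 1.35% of counts in male liver controls and 1.01% in low-dose males, and of 1.41% in female controls and 1.73% in low-dose females. With that share as a covariate the sexes' difference was 0.60 for Ifi27 and 0.14 for Ifi35 (adjusted p = 1, edgeR). It was 0.54 for Ifi27 and 0.02 for Ifi35 within batch 1 alone (adjusted p = 1), and 1.80 and 1.55 within batch 2 alone (adjusted p = 0.0454 and 0.0475, edgeR). The count of 2 fell to 0 without male control replicate 5 or 7, male low replicate 1, 2 or 6, female control replicate 1, 3, 5 or 7, or female low replicate 1, 2, 5 or 6. It was 1 without male control replicate 8 or female low replicate 4. Over 32 such fits Ifi27 was called in 19 and Ifi35 in 17. Of 5 hepatocyte markers 1 was called higher in the same comparison, where 6% of all genes were called higher. Outside the list, Ptpn2 (0.63 ± 0.18), B2m (0.63 ± 0.18), Psme1 (0.60 ± 0.20) and the Isg15-conjugating enzyme gene Ube2l6 (0.81 ± 0.26) had a higher low-dose change in females than in males (adjusted p = 0.0387 to 0.0499, edgeR), the last 3 of 40 other induced genes.

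In vehicle-treated livers, 4 of the 39 genes were higher in females than in males and 0 were lower. Over all genes 22.8% were called, 10.5% higher and 12.3% lower. The 4 made up 10.3%, so the share called higher is near that over all genes. Irf1, a transcription factor of the type II response, was at 16.5 to 29.6 CPM in the 8 male controls (median 23.5) and at 36.3 to 53.5 CPM in the 8 female controls (median 38.8). These groups did not overlap, and the log2 difference was 0.81 ± 0.14 (adjusted p = 1.56e-05, edgeR). Dtx3l had medians of 60.6 CPM in males (34.5 to 81.6) and 88.0 CPM in females (62.7 to 128), Bst2 of 319 CPM (241 to 587) and 512 CPM (412 to 597), and Ifit2, an RNA-binding antiviral gene, of 15.8 CPM (14.2 to 20.3) and 22.1 CPM (17.2 to 35.9). For these 3 genes the sexes overlapped, and the log2 differences were 0.53 ± 0.15, 0.51 ± 0.15 and 0.41 ± 0.13 (adjusted p = 0.00739, 0.0141 and 0.0235, edgeR). Within batch 1 alone the differences were 0.87 for Irf1, 0.68 for Bst2, 0.22 for Dtx3l and 0.13 for Ifit2, and the last 2 did not pass (adjusted p = 0.542 and 0.742, edgeR). Within batch 2 alone they were 0.78 for Irf1, 0.81 for Dtx3l, 0.73 for Ifit2 and 0.43 for Bst2, and Bst2 did not pass (adjusted p = 0.272, edgeR).

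Cell markers also differed between the sexes in control livers. The counts of markers and pathway genes below stand beside 22.8% of all genes called, 10.5% higher in females and 12.3% lower. Of 11 macrophage markers 4 were higher in females, with summed levels of 454 to 874 CPM beside 352 to 748 CPM in males, and of 4 endothelial markers 2 were higher, with 163 to 240 CPM beside 76.0 to 191 CPM. Of 5 hepatocyte markers 3 were lower in females, although their summed level was 98811 to 148870 CPM in females and 87703 to 112365 CPM in males. The pancreatic acinar markers summed to 10.8 to 320 CPM in females and 0 to 1.22 CPM in males, and that sum was nearly all 1 gene, Cpa1, since Prss1, Ctrb1, Pnlip and Amy2a3 did not exceed 0.33 CPM in any liver library. The part of these markers in the 4 calls was not tested. Among other genes of the pathway in the same comparison, Ifngr2, a subunit of the type II receptor, was higher in females by a log2 difference of 1.12. It was the 1 called of 4 receptor genes (adjusted p = 2.33e-08, edgeR). Of 9 signalling genes 3 were higher in females, Stat3 by 0.64 ± 0.17, Tyk2 by 0.28 ± 0.09 and Jak2 by 0.35 ± 0.13, and of 8 sensing genes 2, the RNA receptor gene Tlr3 by 0.75 ± 0.14 and the kinase gene Ikbke by 0.48 ± 0.17. Of 8 restraining genes Trim24 (4.64 ± 0.29) and Ptpn6 (0.40 ± 0.10) were higher and Ptpn2 (-0.50 ± 0.13) was lower. Of 40 other induced genes 9 were higher and 1 lower, with the GTPase gene Ifi47 at 3.68 ± 0.29, Trafd1 at 0.66 ± 0.13, Mov10 at 0.59 ± 0.15 and Tdrd7 at 0.28 ± 0.08.

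In stomach and duodenum controls, edgeR called 0 of these genes between the sexes, with 0.172% and 0.079% of all genes called. In stomach DESeq2 called 3, with its share over all genes not counted. In edgeR 7 passed unadjusted beside 7.31% of all genes, all 7 higher in females. Irf7 ranged from 4.31 to 9.95 CPM in male and from 7.72 to 23.0 CPM in female stomach controls, and Irf1 from 16.4 to 36.4 CPM in males and 27.3 to 57.8 CPM in females. Oasl ranged from 9.45 to 43.2 CPM in males and from 25.8 to 82.9 CPM in females. The log2 differences were 1.00 ± 0.25 for Irf7, 0.67 ± 0.18 for Irf1 and 1.09 ± 0.29 for Oasl, with overlapping groups (adjusted p = 0.105, 0.122 and 0.125, edgeR). In duodenum DESeq2 called 0, and 2 passed unadjusted beside 5.3% of all genes, both lower in females, with Ifit3 at -1.23 ± 0.37, Gbp2 at -0.36 ± 0.16 and Gbp5 at -0.29 ± 0.15 (adjusted p = 0.406, 0.833 and 0.935, edgeR).

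The tissues differed far more than the doses. Over the vehicle controls of both sexes, 30 of 38 genes were lower in stomach than in liver and 3 were higher, and 22 were lower in duodenum than in liver and 8 higher. Over all 16033 genes 82.8% were called between stomach and liver (38.8% lower, 44% higher) and 82% between duodenum and liver (36.7% lower, 45.2% higher). The median log2 difference of the 38 genes from liver was -1.80 in stomach, beside 0.08 over all genes, and -0.69 in duodenum, beside 0.13. Between stomach and duodenum 25 genes were lower in stomach and 6 higher, where 76.9% of all genes were called (38.1% lower, 38.8% higher), with a median of -0.88 beside -0.01. In these comparisons CPM is scaled by edgeR's composition factors, whose medians were 0.612 in liver, 1.27 in stomach and 1.30 in duodenum. The fit did not pair libraries that carry the same number in different tissues.

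Effector genes showed some of the widest gaps. Bst2 had a scaled median of 701 CPM in liver (407 to 1057), 25.03 CPM in stomach (20.8 to 36.2) and 29.3 CPM in duodenum (21.0 to 39.0). Liver did not overlap the other 2 tissues, with log2 differences of -4.66 ± 0.12 for stomach and -4.55 ± 0.12 for duodenum (adjusted p = 1.26e-33 and 1.02e-32, edgeR), while the log2 difference between stomach and duodenum, -0.11, did not pass the test. Ifi27 was likewise highest in liver, with a scaled median of 354 CPM (175 to 747) beside 25.9 CPM in stomach (16.4 to 52.0) and 21.6 CPM in duodenum (10.7 to 47.5). Its log2 differences from liver were -3.71 ± 0.15 and -4.11 ± 0.16. Oas1a followed the order liver, duodenum, stomach, with scaled medians of 15.2, 5.00 and 1.28 CPM, and the ranges of neighbouring tissues overlapped.

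Transcription factors of the pathway did not share 1 order of tissues. Stat2 had scaled medians of 120 CPM in liver (74.5 to 156), 35.3 CPM in duodenum (29.4 to 42.8) and 26.4 CPM in stomach (22.1 to 30.9), with liver apart from the others. Irf9, its partner, had 30.7 CPM in liver (20.02 to 43.1), 15.3 CPM in duodenum (12.2 to 16.7) and 9.74 CPM in stomach (6.93 to 11.8), and the 3 ranges did not overlap. Irf1 instead was highest in duodenum, with 128 CPM (92.5 to 170), then liver with 50.5 CPM (30.4 to 86.0) and stomach with 23.0 CPM (13.1 to 45.5). The log2 difference of Irf1 was 1.28 ± 0.09 from liver to duodenum and -2.30 ± 0.10 from duodenum to stomach (adjusted p = 5.14e-25 for the latter, edgeR). Irf7 had 17.2 CPM in liver (7.48 to 46.9), 10.9 CPM in duodenum (4.59 to 39.1) and 6.59 CPM in stomach (3.53 to 18.1), and the log2 difference of -0.16 between liver and duodenum did not pass the test.

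Several further genes were among the 10 with the smallest p in a pair of tissues. Dtx3l was lower by a log2 difference of -3.32 ± 0.10 in stomach and -1.89 ± 0.09 in duodenum than in liver, and Ifit2 by -2.57 ± 0.12 and -2.83 ± 0.12. The sensor gene Dhx58, which encodes LGP2, was lower by -3.30 ± 0.16 in stomach and -2.39 ± 0.15 in duodenum. In stomach the ADP-ribosyltransferase family genes Parp9 (-3.05 ± 0.13) and Parp14 (-3.20 ± 0.15) and the sensor gene Ifih1 (-2.39 ± 0.12) were also lower than in liver, and in duodenum Ifi44 (-1.92 ± 0.13) and Mx2 (-3.73 ± 0.26). From duodenum to stomach the log2 differences were -4.98 ± 0.28 for Zbp1, -4.50 ± 0.31 for Oas3, -1.94 ± 0.13 for Parp12, -2.21 ± 0.15 for Parp14, -1.46 ± 0.13 for Ifi35, -1.53 ± 0.15 for Oasl2 and -1.31 ± 0.13 for Xaf1.

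The genes higher in the gut than in liver were few: Sp100, a nuclear body gene, was higher in both, by 1.07 in stomach and 1.70 in duodenum. Zbp1, a sensor of left-handed nucleic acids that can start cell death, had a scaled median of 15.4 CPM in duodenum (2.7 to 27.8) beside 0.639 CPM in liver (0 to 1.88), a log2 difference of 4.20 ± 0.28. Oas3 was at 6.70 CPM in duodenum (2.92 to 10.4), 1.41 CPM in liver (0.147 to 5.03) and 0.331 CPM in stomach (0 to 0.506). Oasl was higher in both gut tissues, with 24.5 CPM in stomach (7.72 to 65.3), 17.3 CPM in duodenum (7.73 to 42.4) and 3.12 CPM in liver (1.37 to 12.7). Mx1 was highest in stomach with 12.5 CPM (8.52 to 17.7), beside 5.87 CPM in liver (2.69 to 22.8) and 4.17 CPM in duodenum (2.29 to 8.33). The differences of Isg15 and Rsad2 did not pass the test for any pair of tissues, and their ranges overlapped in all 3.

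**Figure D3:**
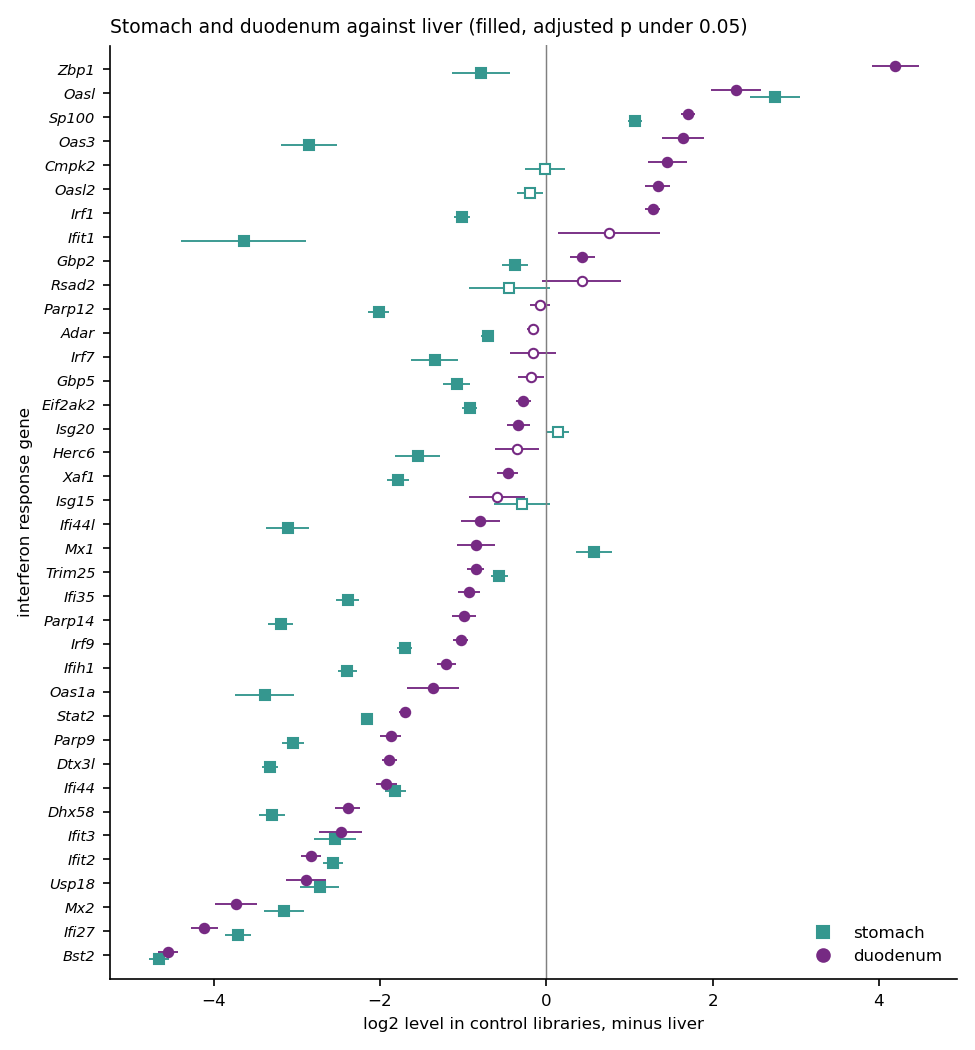
Log2 difference of stomach and duodenum from liver in vehicle controls, with standard errors, for the 38 interferon response genes tested; filled points pass an adjusted p of 0.05. Bst2 and Ifi27 lie far below 0 in both tissues, and Zbp1 and Irf1 lie above 0 in duodenum and below 0 in stomach.

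Library by library, the genes varied together to different degrees. After removing sex, dose and batch, the median Pearson correlation between pairs of these genes was 0.39 in liver (741 pairs, 267 above 0.5), 0.18 in stomach (630 pairs, 31 above 0.5) and 0.23 in duodenum (703 pairs, 150 above 0.5). Over all gene pairs the medians were -0.0013, -0.0045 and -0.0034. These values describe residuals that share libraries and depth, and carry no p. In duodenum the genes most like Irf7 over 47 libraries were Oasl (0.93), Rsad2 (0.93), Herc6 (0.90), Isg15 (0.89) and Parp14 (0.81). Adar (0.13) and Trim25 (0.15), which also fell at the high dose, were not among them, and Bst2 was at -0.29 and Sp100 at -0.30. Bst2 instead varied with Gbp2 (0.72), Gbp5 (0.59) and Ifit2 (0.50), and Gbp2 with Gbp5 (0.71) and Ifit2 (0.70). In liver the genes most like Irf7 over 46 libraries were Mx1 (0.90), Oas1a (0.88), Dhx58 (0.87), Ifit3 (0.84) and Usp18 (0.82), a protease that removes Isg15, with Irf1 at -0.14. In stomach they were Isg15 (0.79), Oas1a (0.74) and Irf1 (0.65), over 48 libraries. Mx1 was thus at 0.90 with Irf7 in liver and at 0.05 in duodenum.

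**Figure D4:**
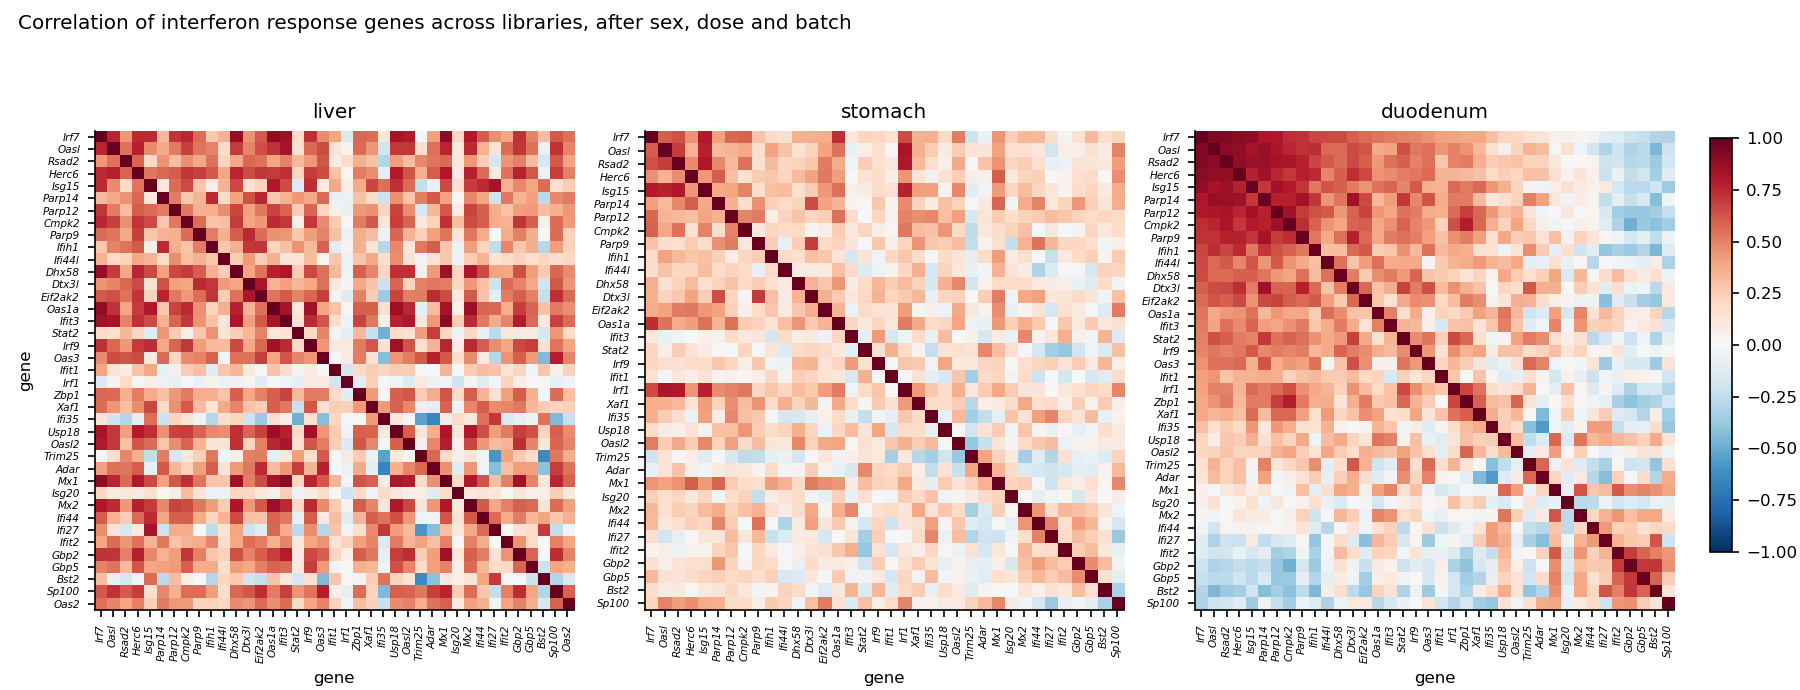
Pearson correlation of residual log2 CPM between interferon response genes in liver, stomach and duodenum, after sex, dose and batch were removed; the colour scale runs from -1 to 1. The liver panel holds the most pairs above 0.5 (267 of 741) and the stomach panel the fewest (31 of 630).

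Library names carry a number that recurs in the 3 tissues, and the labels do not say that it marks 1 animal. Residuals of libraries with the same number were correlated between tissues for each gene, over 46 numbers for liver and stomach, 45 for liver and duodenum and 47 for stomach and duodenum, with permutation p adjusted over all genes. Of the members, 4 of 36 were called above 0 for liver and stomach, 3 of 38 for liver and duodenum and 6 of 36 for stomach and duodenum, beside 1.16%, 0.821% and 1.41% of all genes. These counts include Ifit1, whose correlation is not given because its libraries fall into separate clusters. Mx2, Ifi44l and Ifit1 were called for all 3 pairs, Oas1a for both pairs that include stomach, and Dtx3l and Parp9 for stomach and duodenum. The antiviral GTPase gene Mx2 had r of 0.66, 0.69 and 0.61 for these pairs (Spearman's rho 0.67, 0.64 and 0.62; permutation p = 2e-05, 3e-05 and 7e-05; adjusted p = 0.00371, 0.00638 and 0.0084). Ifi44l had r of 0.63, 0.68 and 0.74 (rho 0.55, 0.64 and 0.73; adjusted permutation p = 0.00371, 0.00299 and 0.00175). Without the 2 libraries farthest from the median, r was 0.65, 0.61 and 0.63 for Mx2 and 0.52, 0.67 and 0.71 for Ifi44l. Within batch 1 alone r was 0.58, 0.81 and 0.61 for Mx2 and 0.64, 0.84 and 0.86 for Ifi44l, and within batch 2 alone it was 0.76, 0.76 and 0.60 for Mx2 and 0.60, 0.68 and 0.66 for Ifi44l. For Oas1a r was 0.56 between liver and stomach and 0.54 between stomach and duodenum (adjusted permutation p = 0.0397 and 0.0367). Between stomach and duodenum r was 0.54 for both Dtx3l and Parp9, but 0.33 and 0.23 within batch 2 alone. Batch 3 held too few numbers, and the batch label was the same in both tissues for 13, 15 and 14 numbers of the 3 pairs.

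Ifit1, which binds RNA that lacks the usual cap methylation, was near 0 in some libraries of every tissue. It lay under 0.6 CPM, a limit chosen after its values were seen, in 12 of 46 liver, 13 of 48 stomach and 12 of 47 duodenum libraries. The highest value under the limit was 0.278 CPM in liver, 0.139 CPM in stomach and 0.577 CPM in duodenum, and the lowest above it 1.07, 0.658 and 4.51 CPM. The low libraries carried the same numbers: 12 were shared by liver and stomach, 11 by liver and duodenum, 12 by stomach and duodenum, and 11 were low in all 3 tissues of the 45 numbers present in all. Number 47 was low in stomach and duodenum and has no liver library. Number 39 was the exception, with Ifit1 at 0 in liver and stomach and 5.63 CPM in duodenum. The low numbers were spread over sexes and doses, with 2, 6 and 7 among male controls, 10 in low-dose males, 19, 20 and 24 in high-dose males, 30 in female controls, 33, 39 and 40 in low-dose females and 42 and 47 in high-dose females. No correlation of Ifit1 is given, since its libraries fall into separate clusters. Counts of Ifit1 may share reads with its near copy Ifit1bl, which ranged from 0.287 to 1.91 CPM in liver, 0.252 to 2.02 CPM in stomach and 2.21 to 123 CPM in duodenum.

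**Figure D5:**
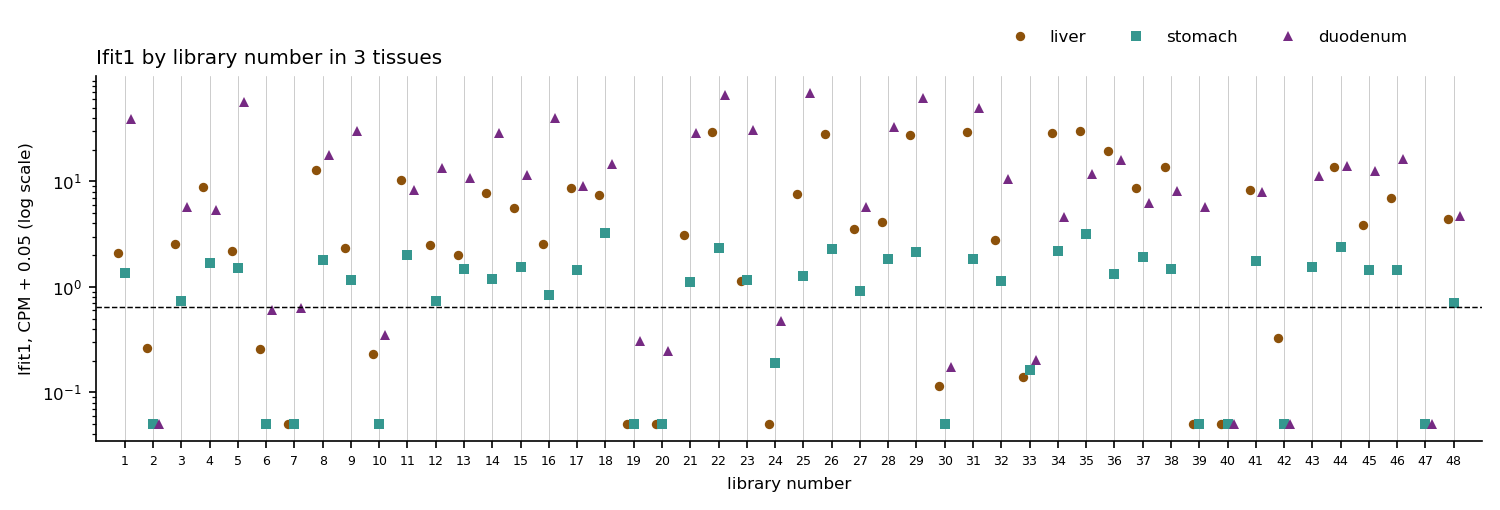
Ifit1 level (CPM + 0.05, log axis) in liver, stomach and duodenum against the number in the library name, with 1 point per library and the limit of 0.6 CPM as a dashed line. The points under the line fall on the same numbers in every tissue measured, except number 39, which is above it in duodenum; number 47 has no liver library.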

How the data were processed

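The authors deposited estimated counts per gene, 1 table for each tissue, made with tools that, per the submitters' processing notes, included Salmon 1.10.3 and STAR 2.7.11b on build mRatBN7.2. Such an estimated count, as deposited by the authors, need not be whole: 9.47% of liver, 11.3% of stomach and 11.9% of duodenum values were not. The notes also name Trim Galore 0.6.10, cutadapt 4.9, UMI-tools 1.1.5, MultiQC 1.28 and FastQC 0.12.1. The sources used here do not give the order of the steps, the annotation or the strand setting, so reads of overlapping or near-identical genes may be shared.

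Counts were rounded and fitted with edgeR 4.0.16 in R 4.3.3 (filterByExpr at min.count 10 and min.total.count 15, TMM scaling, quasi-likelihood test), with 1 coefficient per sex and dose group plus batch over all libraries of a tissue. P-values were adjusted with Benjamini-Hochberg over all genes of a contrast, with a threshold of 0.05. Dose contrasts of both sexes average the sexes. Tissues were compared in 1 fit of the control libraries of all 3 tables joined by gene, with a coefficient per tissue and sex plus batch. DESeq2 1.42.0 was an alternative, beside other scaling, no filter, no batch term, a replicate block and no batch 3. The share of ribosomal protein transcripts in the model and each replicate left out were further alternatives. Fits within 1 batch were added after seeing the data. A fit between tissues with the library number as a block was not planned either. For all these refits only calls on the listed genes were kept, so the share over all genes was not counted. Where a DESeq2 count stands beside a share over all genes, that share is edgeR's. The code was checked on simulated counts. Same-number correlations used residuals of log2 CPM (prior count 2) and 100000 permutations, two-sided. Promoter windows came from RefSeq, another build than the counts; 9 members had none.

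The members, the pathway lists and the cell markers were chosen with earlier results of these data known. The genes named in each comparison are those called (up to 10 with the smallest p), or, where fewer than 3 were called, the 3 with the smallest p; Stat2, Irf1, Irf7, Irf9, Isg15, Mx1, Ifit3, Oas1a, Rsad2 and Bst2 are described in each tissue. Precision rests on 6 to 8 libraries per sex and dose and at least 4947825 counts per library.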

Additional observations from a re-analysis of the deposited data

Results flagged for a closer look

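In liver, the low-dose change differed between the sexes by the test of the difference itself for Ifi27, by 1.32 on the log2 scale, and for Ifi35, by 0.94. Each gene called in a dose or sex comparison was also examined in the sex and dose groups compared. Of these 56 groups 7, all in duodenum, held a library far from the others by Dixon's test on CPM. That test flags about 1 in 20 groups of normally distributed values, and the distribution was not checked here. Groups of different genes share libraries, so the 7 cannot be set against that rate. Male high replicate 6 was the highest of its group for Dtx3l (45.4 CPM, next 36.5), Herc6 (16.5 CPM, next 10.1) and Oasl (33.8 CPM, next 21.6). Rsad2 was highest in female control replicate 6 (22.5 CPM, next 9.29) and, among high-dose females, in replicate 7 (4.38 CPM, next 2.21). Trim25 was highest in female control replicate 7 (76.5 CPM, next 56.2), and Dtx3l lowest in female high replicate 5 (27.3 CPM, next 34.7).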

How the results depend on the processing

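No called gene that was followed singly changed sign in any setting run. Between tissues only the 10 genes with the smallest p of each pair were followed singly. With the library number as a block, all 30 of these calls were kept. The duodenal count of 8 at the high dose became 5 with no filter, 5 without batch 3, 0 with the ribosomal protein share, 0 in batch 1 alone and 5 in batch 2 alone; the low-dose count of 0 became 3 in batch 2 alone, and that of high-dose males 1 with DESeq2. The liver count of 2 for the sexes' difference at the low dose became 1 with no filter, 0 with no batch term, 1 without batch 3, 0 with the ribosomal share and 0 in batch 1 alone; low-dose males had 1 with DESeq2, and the 4 genes between control sexes became 2 in batch 1 alone. The stomach count of 1 between doses became 0 with DESeq2 size factors, no filter, no batch term, without batch 3, with the ribosomal share and in batch 1 or 2 alone. That of 2 in high-dose males became 5 with DESeq2, 0 with no filter, 0 with no batch term, 5 without batch 3, and 0 with the ribosomal share and in each batch alone, and that of 0 between control sexes 3 with DESeq2. Leaving out 1 library at a time gave 2 to 10 for the duodenum at the high dose, 0 to 3 for its males, 3 to 5 between control sexes in liver, 0 to 3 for the liver sexes' difference, 0 to 1 in stomach at the high dose and between doses, and 0 to 5 in stomach high-dose males. The counts between tissues, 33, 30 and 31, stayed between 28 and 34 in all settings run. Of single called genes, 13 of 17 lost their call with the ribosomal share (4 kept it), 15 in batch 1 alone and 8 in batch 2 alone. The cause of these shifts was not tested.

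With the replicate number as a block, the counts were 2 for the duodenum at the high dose, 0 for the stomach between doses and 3 between control sexes in stomach. The numbers were not taken to pair the libraries. Correlations between same-numbered libraries of different dose groups had medians of -0.013 in liver, -0.003 in stomach and 0.003 in duodenum. Between other numbers the medians were 0.008, -0.008 and -0.01. Same-numbered pairs ran from -0.58 to 0.63 and exceeded 0.1 in 18 of 44 liver, 12 of 48 stomach and 18 of 46 duodenum pairs. Genes near 1 CPM, such as Ifit3 in stomach, rest on few counts.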
